A study of Mus musculus with 6 samples.

Results

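Nuclear receptors are transcription factors, most of them switched by small lipid-like ligands, and coregulators are the proteins they recruit to activate or silence their targets. The genes described here are 27 nuclear receptors and 5 coregulators, 32 of the 21512 genes in the table. They were taken from a list of symbols whose rule holds no measured value. The list was chosen with earlier results of these data known. All 32 were found, and 30 of them were among the 13990 genes with enough signal to be tested, meaning a value of at least 1 in at least 3 libraries. Vdr and Nr2f1 lay under that filter and are given by library only.

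RNA of whole liver was sequenced from 6 C57BL/6J mice, each its own library. All 6 were fed a high-fat diet and given carbon tetrachloride, an agent toxic to hepatocytes, for 12 weeks as a model of metabolic dysfunction-associated steatohepatitis (MASH) with fibrosis. Every 3 days, 3 mice received an antibody against PD-1, an inhibitory receptor of activated T cells, and 3 received an isotype control antibody. No mouse without the diet and toxin was analysed here, so every value describes a diseased liver. The titles name PD-1 for all 3 antibody-treated mice, while for replicates 2 and 3 the treatment field has another number after "PD". The comparison asks what PD-1 blockade during the build-up of disease does to RNA levels in the liver.

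In hepatocytes, receptors such as CAR, PXR, LXR and the PPARs read drugs, bile acids, oxysterols and fatty acids and set the enzymes that handle them. Most of these pair with RXR, which binds a vitamin A derivative, whereas steroid receptors such as the glucocorticoid receptor bind DNA mainly as pairs of themselves. Some receptors hold corepressors such as NCOR1 while unliganded or antagonised, and ligand exchanges these for coactivators of the SRC family.

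Values are CPM, the count of a gene relative to the total count, of a library scaled by the authors with trimmed-mean factors, and fold changes are anti-PD-1 minus isotype control on the log2(value + 0.5) scale. Depth was 15528364 to 20779319 reads per library. At that depth 3 reads correspond to 0.144 to 0.2 CPM, a limit that covers counting error only. Summed hepatocyte markers reached 66067 to 80271 CPM after anti-PD-1 and 68331 to 90058 CPM in isotype controls. In whole liver, fewer cells of a type and less RNA per cell cannot be told apart, and this holds for every result below. Some libraries stood apart from their group. Anti-PD-1 replicate 1 had 41.7 CPM over 6 T and NK cell markers, against 7.12 and 7.97 CPM in the other anti-PD-1 libraries and 2.46 to 3.88 CPM in isotype controls. Isotype control replicate 1 differed in clock genes: the core clock gene Bmal1, chosen after its values were seen, was at 22.9 CPM there and at 3.87 to 8.93 CPM elsewhere. The clock repressor Per1 was at 80.0, 122 and 103 CPM in anti-PD-1 replicates 1 to 3 and at 16.6, 69.4 and 57.2 CPM in isotype control replicates 1 to 3.

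Fold changes of the receptors and coregulators were mostly small, and Nr1i3, Nr2f2, Nr4a2 and Nr6a1 had the lowest unadjusted p by limma. None of the 30 tested members passed an adjusted p of 0.05 in limma, with Benjamini-Hochberg adjustment over all 13990 genes, and only 1 gene in the whole table did (0.00715% of those tested). The lowest adjusted p of a member by limma was 0.218. At an unadjusted p under 0.05, 2 members were higher after anti-PD-1 (Nr4a2 and Nr6a1), where 5.04% of all tested genes were higher, and 2 were lower (Nr1i3 and Nr2f2), where 6.24% of all tested genes were lower. Nr4a2 reached 1 CPM in all 3 anti-PD-1 libraries but in only 2 controls, so the filter on low values may have favoured its sign. DESeq2 on the recovered reads called 1 member, Nr1i3, lower, and 1.87% of all genes in either direction. edgeR called no member. limma with the replicate number as a block called no member and 0.286% of all genes.

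The median log2 fold change was 0.04 over the members and 0.003 over all tested genes. Fold changes were positive for 17 members and negative for 13, and 70% of members lay within 0.25 of zero on the log2 scale, against 66.3% of all tested genes. All 3 anti-PD-1 values lay above all 3 isotype control values for 4 members (Nr1h2, Nr4a2, Nr6a1 and Thra), a pattern found in 7.13% of all tested genes. They lay below for 2 members (Nr1i3 and Nr2f2), a pattern found in 9.98% of all tested genes. The limit given above for Nr4a2 and the filter holds for this count too. With 3 mice against 3, an exact permutation test of a single gene cannot give a two-sided p under 0.1, and all p-values given are from fits across genes. The heat map by library shows the few rows that stand out from an otherwise pale field.

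**Figure D1:**
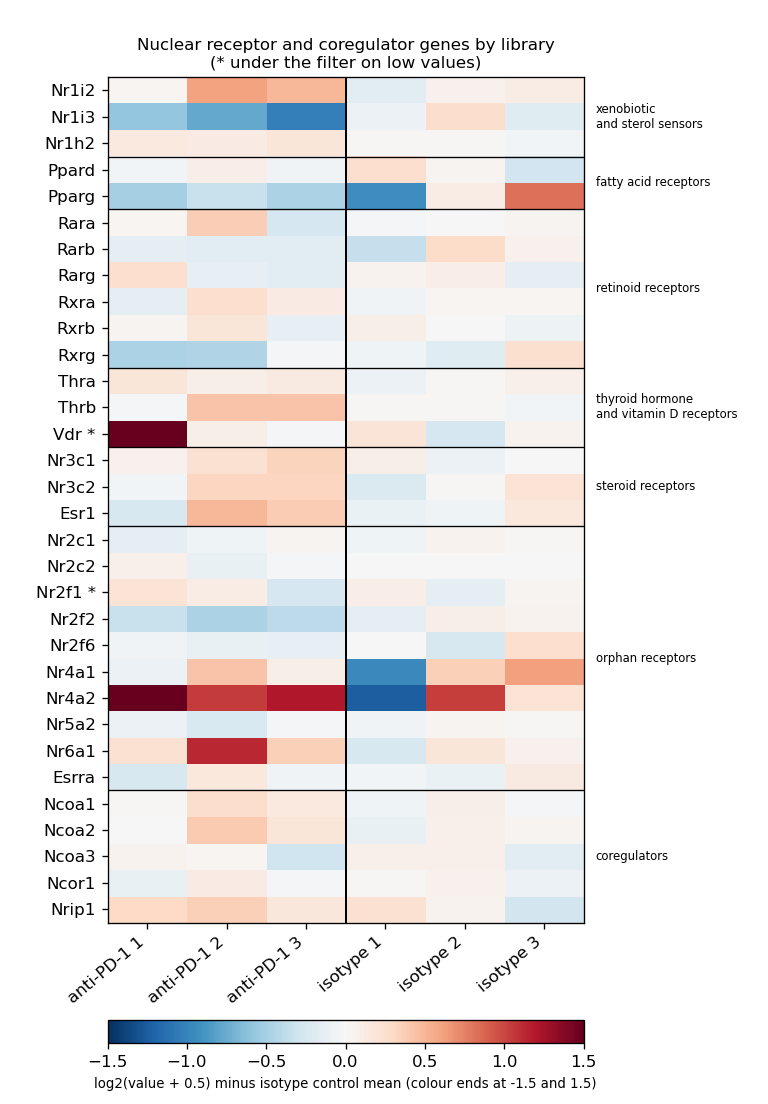
Each row is a member gene, grouped by role, and each column a library. Colour gives log2(value + 0.5) minus the isotype control mean of that gene (ends at -1.5 and 1.5). Nr1i3 and Nr2f2 are blue in all 3 anti-PD-1 libraries, while Pparg, Nr4a1 and Nr4a2 differ as much among the isotype controls as between the groups. An asterisk marks Vdr and Nr2f1, under the filter on low values.

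**Figure D2:**
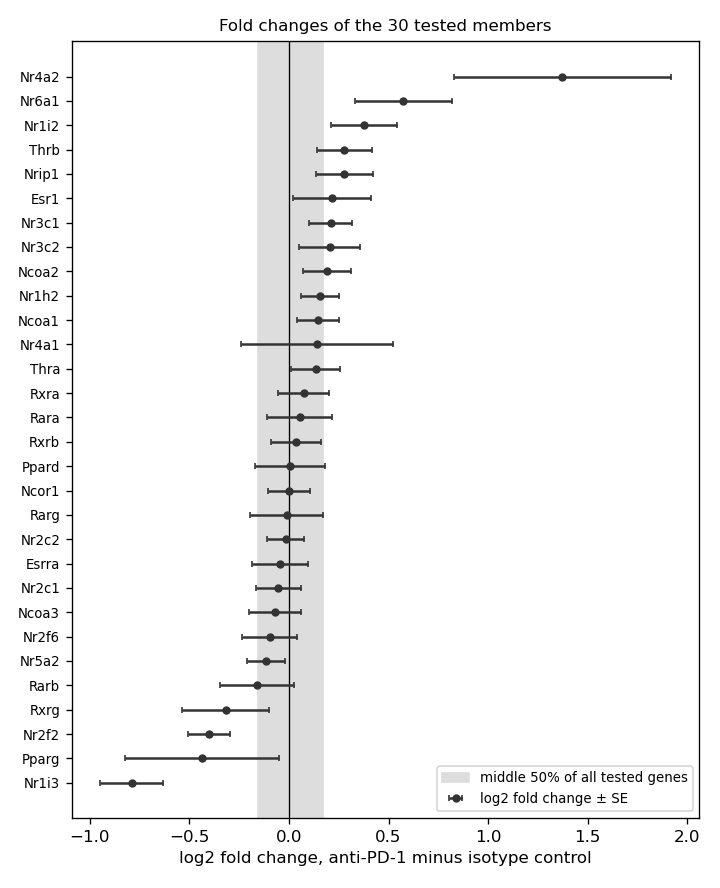
Log2 fold change (points) with its SE (bars) by limma for the 30 tested members, ordered by size. The horizontal axis is anti-PD-1 minus isotype control, and the grey band holds the middle 50% of all tested genes, from -0.16 to 0.17. Nr4a2 (1.37) and Nr1i3 (-0.79) are the ends of the order.

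Among the receptors that sense xenobiotics and sterols, Nr1i3 was lower in every anti-PD-1 liver. Nr1i3 encodes CAR, which in hepatocytes turns on enzymes that clear drugs and bilirubin. It was at 35.5, 31.3 and 26.1 CPM in anti-PD-1 replicates 1 to 3 and at 50.4, 64.2 and 47.2 CPM in isotype control replicates 1 to 3. The highest anti-PD-1 liver thus lay under the lowest control liver, and the mean was 31.0 ± 4.74 CPM after anti-PD-1 and 53.9 ± 9.03 CPM in controls (SD, n = 3 each). The log2 fold change was -0.79 ± 0.16 (SE), with an adjusted p of 0.218 by limma, 0.0872 by limma with the replicate block and 0.00778 by DESeq2. Over all alternatives the log2 fold change lay between -0.93 and -0.66, and the negative sign held in all 17. The gene overlaps Tomm40l, a mitochondrial import gene on the opposite strand. In the GRCm38 annotation the exons of Tomm40l cover 74.8% of the exon bases of Nr1i3. Tomm40l was at 13.2, 16.8 and 17.1 CPM after anti-PD-1 and at 23.6, 19.5 and 15.4 CPM in isotype controls, which overlap (log2 fold change -0.29, limma adjusted p = 0.580). The library kit keeps strand, per the labels' protocols, but the strand setting of the counting is not given in the sources used here, so reads of the shared bases may have gone to either gene.

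The promoter of Nr1i3 is shown because this was the only member called in any of the fits run. It is the RefSeq window of 250 bases before to 50 bases after the transcript start in GRCm38.p6, 5′ to 3′ along the gene, with the only match to the motifs searched in capitals, an E-box (CACGTG) that begins 244 bases upstream of the start.
Nr1i3, chr1:171213720-171214019, plus strand: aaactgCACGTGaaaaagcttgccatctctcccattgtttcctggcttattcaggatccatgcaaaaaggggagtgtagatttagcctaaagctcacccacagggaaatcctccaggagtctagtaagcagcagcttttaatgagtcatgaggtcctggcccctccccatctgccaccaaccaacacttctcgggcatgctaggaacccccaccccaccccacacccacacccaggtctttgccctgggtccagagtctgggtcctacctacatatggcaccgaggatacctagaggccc

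Nr1i2 encodes PXR, a receptor for drugs and bile acids that shares many targets with CAR. It was at 44.6, 66.7 and 61.8 CPM in anti-PD-1 replicates 1 to 3 and at 38.7, 45.6 and 47.3 CPM in isotype control replicates 1 to 3. Anti-PD-1 replicate 1 fell among the controls and the other anti-PD-1 libraries lay above them (log2 fold change 0.38 ± 0.16 SE, limma adjusted p = 0.446). Nr1h2, which encodes the oxysterol receptor LXR beta, was at 25.9, 25.5 and 26.6 CPM after anti-PD-1 and at 23.7, 23.6 and 22.7 CPM in controls. Its groups did not overlap, but the difference was small (0.15 on the log2 scale, limma adjusted p = 0.581).

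Among the genes these receptors are known to regulate, the CAR and PXR targets did not follow a single direction. At the unadjusted p used for this and every list below, 5.04% of all tested genes were higher and 6.24% lower. Of 19 tested CAR and PXR targets, 4 were higher and 1 was lower at an unadjusted p under 0.05, with a median log2 fold change of 0.05. Of the higher genes, Por and Alas1, named after their values were seen, overlapped between the groups. For each of them isotype control replicate 1 was the lowest library. The groups of the other higher genes, Cyp2b10 and Ces2a, did not overlap. Cyp2b10, the classic CAR-induced cytochrome P450 of mouse liver, was at 8.41, 5.19 and 5.79 CPM after anti-PD-1 and at 3.29, 1.62 and 2.41 CPM in isotype controls. All anti-PD-1 values were above all control values, the opposite side from Nr1i3 itself (log2 fold change 1.26 ± 0.27 SE, adjusted p = 0.234 by limma and 0.00951 by DESeq2). Its close paralog Cyp2b9, chosen after its values were seen, was at 66.7, 4.26 and 2.17 CPM after anti-PD-1 and at 35.1, 36.0 and 44.6 CPM in controls, and reads of such similar genes may be split between them. Cyp3a11, the main PXR-induced P450, averaged 1839 CPM after anti-PD-1 and 2402 CPM in controls, with overlapping groups (-0.36 on the log2 scale, limma adjusted p = 0.541). Of 12 tested LXR targets, 4 were higher and 0 lower at an unadjusted p under 0.05, with a median of 0.16. Abcg5, a subunit of the sterol pump that secretes cholesterol into bile, was at 114, 160 and 157 CPM after anti-PD-1 and at 50.01, 77.3 and 85.4 CPM in controls. Its log2 fold change was 1.04 ± 0.22 (SE), with an adjusted p of 0.232 by limma, 0.00142 by DESeq2 and 0.0385 by limma with the replicate block. Abcg8, its partner in the pump, had a log2 fold change of 1.00 ± 0.25 (SE), with an adjusted p of 0.255 by limma and 0.00997 by DESeq2.

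**Figure D3:**
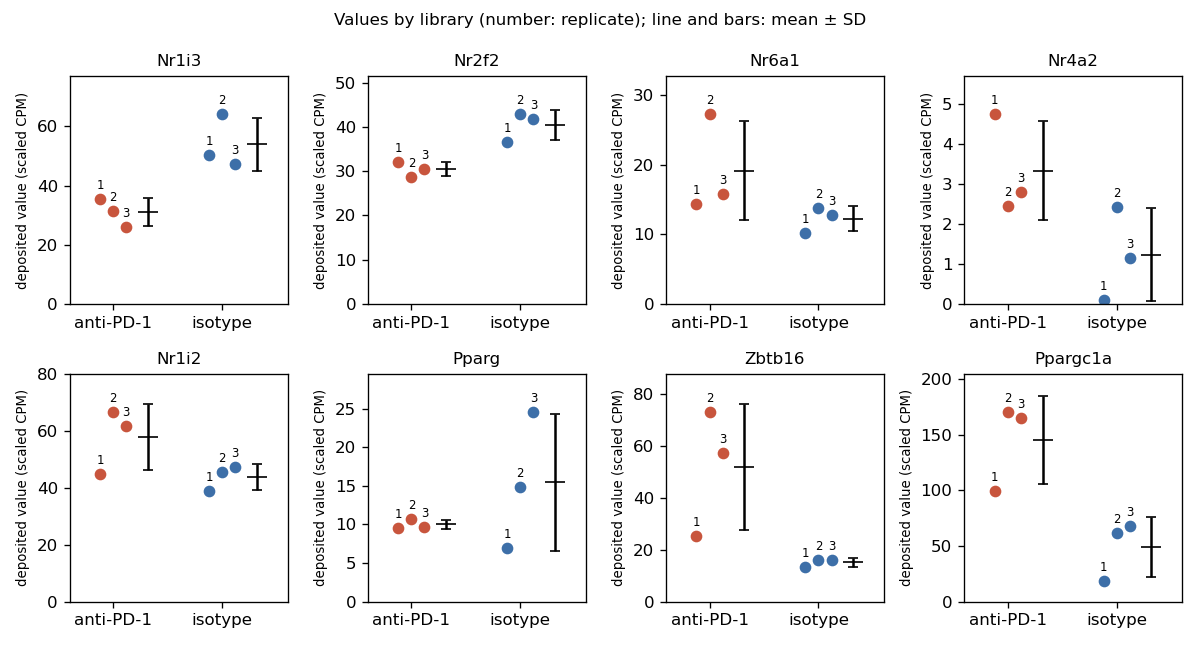
Value in every library (points, numbered by replicate) for 6 members and the non-member genes Zbtb16 and Ppargc1a. Line and bars give the mean and SD of each group (n = 3 each). The vertical axes give scaled CPM from 0. Nr1i3 and Nr2f2 lie lower in all anti-PD-1 libraries, and Pparg ranges from 6.91 to 24.6 CPM among the isotype controls.

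Of the fatty acid receptors, Pparg varied mostly among the control mice. Pparg encodes PPAR gamma, the receptor that drives lipid storage in adipocytes and that fatty livers of mice also express. It was at 9.56, 10.7 and 9.73 CPM in anti-PD-1 replicates 1 to 3 and at 6.91, 14.8 and 24.6 CPM in isotype control replicates 1 to 3. The anti-PD-1 livers were close together and the control livers spanned them on both sides (log2 fold change -0.44 ± 0.39 SE, limma adjusted p = 0.703). Leaving out isotype control replicate 3 gave a log2 fold change of -0.02, and leaving out isotype control replicate 1 gave -0.90. Isotype control replicate 2 was the only library with more than 0.0961 CPM over the 3 adipocyte markers Adipoq, Plin1 and Lep (13.0 CPM), and without it the log2 fold change of Pparg was -0.38. In isotype control replicate 3, where Pparg was highest, all 3 adipocyte markers were at 0. Ppard, the widely expressed PPAR delta, averaged 7.50 ± 0.48 CPM after anti-PD-1 and 7.56 ± 1.47 CPM in controls (SD, n = 3 each).

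Of 16 tested PPAR targets, 1 was higher and 5 were lower at an unadjusted p under 0.05, with a median log2 fold change of -0.42. Plin4, a lipid droplet coat protein, was at 3.55, 4.66 and 3.10 CPM after anti-PD-1 and at 6.47, 17.4 and 10.2 CPM in isotype controls. The groups did not overlap, and the highest value was in isotype control replicate 2, the library with adipocyte markers (log2 fold change -1.38 ± 0.33 SE, adjusted p = 0.255 by limma and 0.00618 by DESeq2). Without that library the log2 fold change was -1.03. Acot1, an acyl-CoA thioesterase, was at 15.3, 9.92 and 12.6 CPM after anti-PD-1 and at 18.8, 19.6 and 19.1 CPM in controls (-0.61 on the log2 scale, limma adjusted p = 0.270). Ppara, the main PPAR of hepatocytes and not a member, was at 123, 176 and 120 CPM after anti-PD-1 and at 138, 164 and 181 CPM in controls, which overlap.

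The groups overlapped for all 6 retinoid receptors. RAR proteins bind retinoic acid, and RXR proteins are the common partner of many receptors. Rxra, the main RXR of hepatocytes, was at 407, 533 and 487 CPM in anti-PD-1 replicates 1 to 3 and at 432, 457 and 459 CPM in isotype control replicates 1 to 3. The control values lay inside the anti-PD-1 range (log2 fold change 0.08 ± 0.13 SE, limma adjusted p = 0.856). Rxrb averaged 16.96 CPM after anti-PD-1 and 16.5 CPM in controls, and Rara averaged 18.3 CPM after anti-PD-1 and 17.4 CPM in controls. Rarg averaged 4.89 CPM after anti-PD-1 and 4.90 CPM in controls. Rxrg, a form better known from muscle and brain, had 2.16, 2.20 and 3.10 CPM after anti-PD-1 and 3.02, 2.76 and 3.87 CPM in controls (-0.32 on the log2 scale, limma adjusted p = 0.621). Rarb, itself a classic target of retinoic acid, averaged 6.19 ± 0.09 CPM after anti-PD-1 and 7.09 ± 1.59 CPM in controls (SD, n = 3 each). Top2b on the opposite strand covers 34.1% of its exon bases.

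Among 7 tested retinoic acid targets, 2 were higher and 0 lower at an unadjusted p under 0.05, with a median log2 fold change of 0.23. Tgm2, a transglutaminase, was at 261, 233 and 285 CPM after anti-PD-1 and at 162, 152 and 181 CPM in isotype controls. Every anti-PD-1 value was above every control value (log2 fold change 0.65 ± 0.12 SE, adjusted p = 0.207 by limma and 1.3e-04 by DESeq2). Cyp26a1, the enzyme that breaks down retinoic acid, was at 29.1, 32.6 and 44.3 CPM after anti-PD-1 and at 20.2, 25.4 and 26.9 CPM in controls (0.52 on the log2 scale, limma adjusted p = 0.355). These groups also did not overlap, whereas those of Cyp26b1 did.

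Both thyroid hormone receptors had positive fold changes that did not pass the test. Thrb encodes TR beta, the main thyroid hormone receptor of hepatocytes. It was at 55.3, 76.4 and 76.5 CPM in anti-PD-1 replicates 1 to 3 and at 57.3, 57.3 and 54.9 CPM in isotype control replicates 1 to 3. Anti-PD-1 replicates 2 and 3 were above the controls and replicate 1 was among them (log2 fold change 0.28 ± 0.14 SE, limma adjusted p = 0.495). Without anti-PD-1 replicate 1 the log2 fold change was 0.43 and the limma adjusted p 0.117. Thra, which encodes TR alpha, was at 11.4, 10.7 and 10.97 CPM after anti-PD-1 and at 9.39, 10.1 and 10.5 CPM in controls (0.13 on the log2 scale, limma adjusted p = 0.712). Its groups stood just apart, and 5.7% of its exon bases are shared with the antisense clock gene Nr1d1. Of 7 tested thyroid hormone targets, 2 were higher and 1 was lower at an unadjusted p under 0.05, with a median of -0.03. The lower gene was Me1, malic enzyme, at 221, 176 and 164 CPM after anti-PD-1 and at 318, 372 and 519 CPM in controls (log2 fold change -1.09 ± 0.20 SE, adjusted p = 0.212 by limma and 1.46e-04 by DESeq2). Dio1, the liver deiodinase, had a log2 fold change of 0.26, with overlapping groups.

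Vdr, the vitamin D receptor, was at 2 to 6 reads in all libraries except anti-PD-1 replicate 1. It had 37, 4 and 4 reads in anti-PD-1 replicates 1 to 3 and 6, 2 and 5 reads in isotype control replicates 1 to 3. The library with 37 reads is the same that had the highest sums of T and NK cell markers and of monocyte and macrophage markers (944 CPM, against 174 and 266 CPM in the other anti-PD-1 libraries and 165 to 319 CPM in isotype controls). Of the 7 monocyte and macrophage markers none was at 0 in all libraries, and their part in the Vdr value was not tested.

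The 3 steroid receptors had positive fold changes of 0.20 to 0.22 on the log2 scale, none past the test. Nr3c1 encodes the glucocorticoid receptor, which in liver raises genes of gluconeogenesis. It was at 166, 184 and 199.9 CPM in anti-PD-1 replicates 1 to 3 and at 168, 149 and 158 CPM in isotype control replicates 1 to 3, so that only anti-PD-1 replicate 1 lay within the control range (limma adjusted p = 0.506). Nr3c2, the mineralocorticoid receptor, was at 30.8, 39.8 and 39.8 CPM after anti-PD-1 and at 27.2, 31.98 and 36.5 CPM in controls. Esr1, estrogen receptor alpha, was at 29.1, 48.8 and 44.8 CPM after anti-PD-1 and at 32.1, 32.7 and 38.5 CPM in controls. For these genes the groups overlapped, with anti-PD-1 replicate 1 the lowest of its group each time. Leaving out 1 library at a time gave log2 fold changes of 0.072 to 0.44 for Esr1 and 0.095 to 0.33 for Nr3c2.

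Of 15 tested glucocorticoid receptor targets, 8 were higher and 2 were lower at an unadjusted p under 0.05. Over all tested genes 5.04% were higher and 6.24% lower. The list had a median log2 fold change of 0.64 and no gene called by limma or DESeq2. Its members had both signs. Mt2, a metallothionein that binds zinc, was at 35.1, 45.4 and 67.9 CPM after anti-PD-1 and at 0.809, 8.71 and 19.3 CPM in isotype controls (log2 fold change 2.96 ± 0.86 SE, limma adjusted p = 0.295). Fkbp5, a chaperone cofactor much used as a readout of the receptor, was at 26.8, 24.8 and 27.1 CPM after anti-PD-1 and at 14.6, 26.1 and 27.5 CPM in controls. Isotype control replicate 1 was the low library for both genes. Leaving it out gave a log2 fold change of 1.84 for Mt2 and -0.031 for Fkbp5, against 2.96 and 0.25 with all libraries. That library was also the lowest control for the other higher genes (Per1, Tat, Klf9, Mt1, Cebpd and Igfbp1) except Angptl4. Tsc22d3, which encodes the glucocorticoid-induced leucine zipper, was on the other side, at 44.9, 28.5 and 34.1 CPM after anti-PD-1 and 87.8, 52.0 and 51.9 CPM in controls (-0.80 on the log2 scale, limma adjusted p = 0.304). Dusp1, a phosphatase of MAP kinases, was at 37.1, 31.8 and 35.1 CPM after anti-PD-1 and at 55.0, 40.9 and 49.0 CPM in controls (-0.47, limma adjusted p = 0.282).

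Among the orphan receptors, whose ligands are unknown or not needed, Nr2f2 was lower in every anti-PD-1 liver. Nr2f2 encodes COUP-TFII, known for its role in vein identity and in mesenchymal cells. It was at 31.99, 28.8 and 30.6 CPM in anti-PD-1 replicates 1 to 3 and at 36.5, 42.9 and 41.8 CPM in isotype control replicates 1 to 3. All anti-PD-1 values were under all control values, with a mean of 30.4 ± 1.62 CPM after anti-PD-1 and 40.4 ± 3.42 CPM in controls (SD, n = 3 each). The log2 fold change was -0.40 ± 0.11 (SE), with an adjusted p of 0.269 by limma and 0.138 by DESeq2, and it lay between -0.51 and -0.36 over the alternatives. The antisense transcript B130024G19Rik, at 1.604 to 3.26 CPM after anti-PD-1 and 1.66 to 3.57 CPM in controls, shares 7.455% of its exon bases. Summed endothelial markers (7 genes, 5 with positive fold changes) were at 365 to 417 CPM after anti-PD-1 and 399 to 404 CPM in controls. Summed stellate cell and fibroblast markers (10 genes, 7 positive) were at 905 to 1314 CPM after anti-PD-1 and 902 to 1147 CPM in controls. No marker of either list passed an unadjusted p of 0.05 in limma, and none was at 0 in all libraries. The part of these cells in the Nr2f2 difference was not tested.

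Nr6a1 encodes GCNF, a repressor known from germ cells and early embryos, where it silences pluripotency genes. It was at 14.4, 27.3 and 15.7 CPM in anti-PD-1 replicates 1 to 3 and at 10.3, 13.9 and 12.7 CPM in isotype control replicates 1 to 3. The groups did not overlap, but anti-PD-1 replicate 2 stood well above all other libraries (log2 fold change 0.57 ± 0.24 SE, limma adjusted p = 0.436). Without that library the log2 fold change was 0.29. Nr6a1 is also the only member whose promoter windows held the full cyclic AMP response element, TGACGTCA. Its RefSeq windows are shown with matches in capitals, which are TGACGTCA at the upstream start site and TGACCT, the reverse complement of AGGTCA, at the downstream one. The TGACGTCA match begins 35 bases after its start, and the AGGTCA matches begin 91 and 45 bases before theirs.
Nr6a1 upstream start, chr2:38926412-38926711, minus strand: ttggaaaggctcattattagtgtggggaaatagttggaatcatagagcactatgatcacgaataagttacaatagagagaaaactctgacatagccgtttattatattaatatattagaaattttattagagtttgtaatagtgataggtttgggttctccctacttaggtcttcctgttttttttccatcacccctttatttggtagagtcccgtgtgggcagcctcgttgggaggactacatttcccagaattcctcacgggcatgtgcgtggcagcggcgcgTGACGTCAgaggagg
Nr6a1 downstream start, chr2:38784466-38784765, minus strand: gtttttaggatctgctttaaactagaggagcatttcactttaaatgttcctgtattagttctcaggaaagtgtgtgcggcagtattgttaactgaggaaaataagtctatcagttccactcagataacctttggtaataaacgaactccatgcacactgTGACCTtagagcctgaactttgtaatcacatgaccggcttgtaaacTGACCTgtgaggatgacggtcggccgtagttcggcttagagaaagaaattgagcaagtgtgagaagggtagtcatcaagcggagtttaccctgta

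The NR4A receptors are immediate early genes, made within minutes of a stimulus and active without ligand. Nr4a2, which encodes NURR1, had 99, 37 and 54 reads in anti-PD-1 replicates 1 to 3 and 2, 45 and 23 reads in isotype control replicates 1 to 3. In CPM this was 4.76, 2.46 and 2.79 after anti-PD-1 and 0.108, 2.43 and 1.16 in controls. The groups did not overlap, yet anti-PD-1 replicate 2 and isotype control replicate 2 were nearly equal, and isotype control replicate 1 lay under the limit of 3 reads. The log2 fold change of 1.37 ± 0.55 (SE, limma adjusted p = 0.414) dropped to 0.75 when isotype control replicate 1 was left out, and to 0.50 when both libraries numbered 1 were. Nr4a1, which encodes NUR77, was at 20.2, 29.2 and 22.8 CPM after anti-PD-1 and at 10.7, 27.6 and 33.2 CPM in controls. Its log2 fold change was 0.14 over all libraries and -0.34 without isotype control replicate 1, the lowest library for this gene too. The third family member, Nr4a3, is not among the 32 and was chosen after its values were seen; it was at 3.84, 3.06 and 4.97 CPM after anti-PD-1 and at 0.432, 2.22 and 2.31 CPM in controls. Of 16 tested immediate early genes, 8 were higher and 1 was lower at an unadjusted p under 0.05, with a median of 0.60. Atf3, a stress-induced transcription factor, was at 13.8, 22.4 and 15.004 CPM after anti-PD-1 and at 7.66, 5.25 and 8.60 CPM in controls (log2 fold change 1.19 ± 0.24 SE, adjusted p = 0.218 by limma and 0.00107 by DESeq2). Egr1, by contrast, was at 9.27, 5.66 and 4.76 CPM after anti-PD-1 and at 9.39, 8.60 and 10.6 CPM in controls (-0.55 on the log2 scale).

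Nr5a2 encodes LRH-1, which with its repressor SHP sets bile acid synthesis. It was at 88.9, 80.6 and 93.3 CPM in anti-PD-1 replicates 1 to 3 and at 91.0, 97.1 and 95.8 CPM in isotype control replicates 1 to 3, with overlapping groups (log2 fold change -0.11 ± 0.10 SE, limma adjusted p = 0.687). Of its 6 known targets tested, 1 was higher and 3 were lower at an unadjusted p under 0.05, with a median of -0.51. Cyp7a1, which catalyses the first step of the classic route to bile acids, was at 106, 127 and 127 CPM after anti-PD-1 and at 281, 476 and 263 CPM in controls. The groups were far apart (log2 fold change -1.45 ± 0.22 SE, adjusted p = 0.129 by limma and 4.91e-07 by DESeq2). Nr0b2, which encodes SHP, was at 8.26, 10.7 and 6.05 CPM after anti-PD-1 and at 17.7, 10.4 and 13.3 CPM in controls, overlapping only through 1 library of each group (-0.70, limma adjusted p = 0.374). The higher gene was the lipoprotein receptor Scarb1, named because the count was 1 (0.55 on the log2 scale, adjusted p = 0.270 by limma and 0.0266 by DESeq2).

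The remaining tested orphan receptors had fold changes within 0.10 of zero on the log2 scale. Esrra encodes ERR alpha, a regulator of mitochondrial genes, and averaged 18.1 ± 2.59 CPM after anti-PD-1 and 18.6 ± 1.58 CPM in controls (SD, n = 3 each). Of 10 tested ERR alpha targets, 1 was higher at an unadjusted p under 0.05, namely Ppargc1a, and the median was -0.02. Nr2c1 and Nr2c2, the testicular receptors TR2 and TR4, averaged 16.7 and 45.0 CPM after anti-PD-1, against 17.4 and 45.5 CPM in controls. Nr2f6 averaged 33.4 CPM after anti-PD-1 and 36.1 CPM in controls. Antisense neighbours cover 30.7% of the exon bases of Nr2c2 (Mrps25) and 54.4% of those of Nr2f6 (Ocel1). Nr2f1, which encodes COUP-TFI, had 20, 13 and 11 reads after anti-PD-1 and 16, 12 and 16 reads in controls, all under 1 CPM.

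The groups overlapped for all 5 coregulators among the members. Ncor1, the corepressor scaffold, averaged 169.8 ± 14.4 CPM after anti-PD-1 and 169.6 ± 9.48 CPM in controls (SD, n = 3 each), with a log2 fold change of -0.00 ± 0.10 (SE). The SRC coactivators Ncoa1 and Ncoa2 had log2 fold changes of 0.15 and 0.19 and Ncoa3 one of -0.07, with limma adjusted p from 0.584 to 0.865. Ncoa2, which in liver also takes part in fasting metabolism, was at 92.1, 119.7 and 103.6 CPM after anti-PD-1 and at 84.6, 96.3 and 93.7 CPM in controls. Only anti-PD-1 replicate 1 lay within the control range. Nrip1, which encodes RIP140, a corepressor of metabolic genes, was at 56.5, 59.1 and 51.8 CPM after anti-PD-1 and at 53.7, 47.6 and 37.7 CPM in controls (log2 fold change 0.28 ± 0.14 SE, limma adjusted p = 0.505).

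Single genes on the lists of coregulators outside the 32 had larger fold changes, but the lists as a whole did not. The median absolute log2 fold change was 0.09 for other coactivators and 0.13 for other corepressors, against 0.15 for the member coregulators. Of 23 other coactivators tested, 2 were higher and 1 was lower at an unadjusted p under 0.05, with a median log2 fold change of 0.04. Ppargc1a encodes PGC-1 alpha, the fasting-induced coactivator of gluconeogenesis and mitochondrial genes. It was at 99.6, 171 and 165 CPM in anti-PD-1 replicates 1 to 3 and at 18.2, 61.9 and 68.1 CPM in isotype control replicates 1 to 3. Every anti-PD-1 library lay above every control library, and replicate 1 was the lowest of both groups (log2 fold change 1.72 ± 0.47 SE, limma adjusted p = 0.279). Leaving out isotype control replicate 1 lowered the log2 fold change to 1.12. With both libraries numbered 1 left out, an alternative chosen after seeing the data, it was 1.37 and the limma adjusted p 0.0117. Ppargc1b, its relative, was at 14.1, 29.4 and 21.8 CPM after anti-PD-1 and at 6.31, 11.3 and 13.3 CPM in controls (1.05 on the log2 scale, limma adjusted p = 0.319).

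Of 13 genes tested from the list of other corepressors, 3 were higher and 2 were lower at an unadjusted p under 0.05, with a median of 0.08. Zbtb16, which encodes the repressor PLZF, was at 25.2, 73.2 and 57.2 CPM after anti-PD-1 and at 13.2, 15.96 and 16.04 CPM in controls (1.62 ± 0.35 SE, adjusted p = 0.232 by limma and 3.9e-05 by DESeq2), and its limma adjusted p was 0.017 without anti-PD-1 replicate 1. Hdac3, a histone deacetylase that works with NCOR1, was at 28.4, 26.3 and 28.3 CPM after anti-PD-1 and at 29.998, 28.8 and 30.1 CPM in controls, a small but non-overlapping difference (-0.10, limma adjusted p = 0.737).

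Of 22 nuclear receptors outside the 32, 16 were in the table and 13 were tested, of which 1 was higher and 2 were lower at an unadjusted p under 0.05, with a median log2 fold change of 0.03. Nr1h4 encodes FXR, the bile acid receptor, and was at 93.1, 102.9 and 100.4 CPM after anti-PD-1 and at 120.8, 124.7 and 118.3 CPM in isotype controls. The groups did not overlap (log2 fold change -0.30 ± 0.09 SE, limma adjusted p = 0.307). Hnf4a, which maintains hepatocyte identity, was at 440, 621 and 638 CPM after anti-PD-1 and at 556, 462 and 499 CPM in controls. Nr1h3, which encodes LXR alpha, averaged 55.3 CPM after anti-PD-1 and 55.2 CPM in controls. The clock receptor Nr1d2 was at 145.5, 198.9 and 193.9 CPM after anti-PD-1 and at 77.4, 155 and 163 CPM in controls, again with isotype control replicate 1 the lowest. Of 14 tested clock genes, 2 were higher and 0 lower at an unadjusted p under 0.05, with a median of 0.46. Nfil3, a repressor of clock output, did not overlap between the groups, at 80.7, 115 and 126 CPM after anti-PD-1 and at 35.6, 38.6 and 48.5 CPM in controls (log2 fold change 1.37 ± 0.19 SE, adjusted p = 0.129 by limma, 1.89e-08 by DESeq2 and 0.0298 by limma with the replicate block). Without anti-PD-1 replicate 1 the limma adjusted p was 0.0274.

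**Figure D4:**
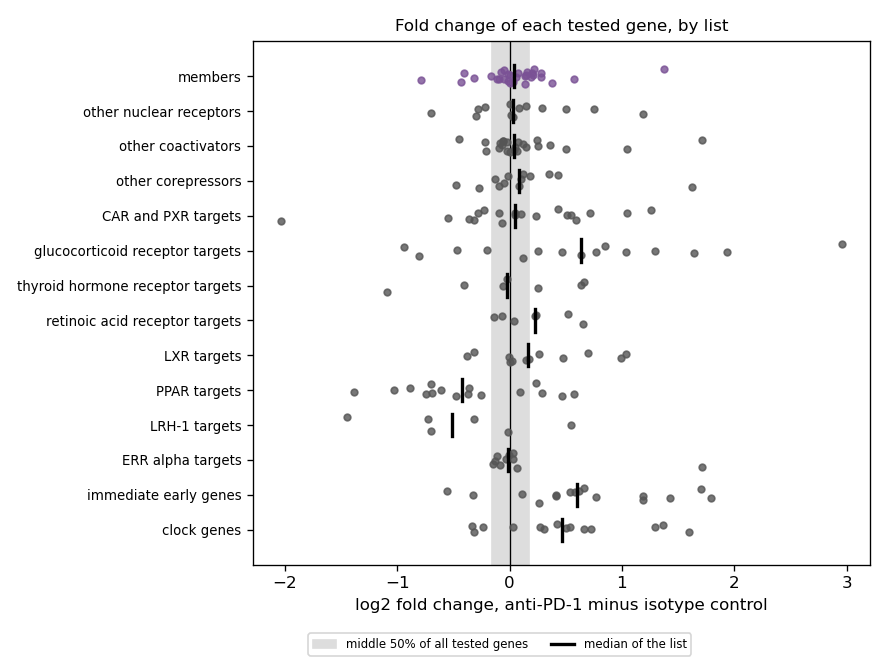
Each point is the log2 fold change (anti-PD-1 minus isotype control, horizontal axis) of a tested gene, in rows by gene list, with the median of each list as a bar and the middle 50% of all tested genes as a grey band. The members have a median of 0.04, inside the band. The medians of the glucocorticoid receptor targets (0.64), immediate early genes (0.60), clock genes (0.46) and retinoic acid receptor targets (0.23) lie to its right. Those of the LRH-1 targets (-0.51) and PPAR targets (-0.42) lie to its left.

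Levels per kilobase of exon, which allow a rough comparison between genes, spread widely over the members. Rxra was the highest, at 87.1 ± 11.7 CPM per kilobase after anti-PD-1 and 82.2 ± 2.76 in isotype controls (SD, n = 3 each). Nr3c1 came next at 23.9 CPM per kilobase after anti-PD-1 and 20.6 in controls, followed by Nr1i2, Nr5a2 and Ncor1. Nr1i3 stood at 7.02 CPM per kilobase after anti-PD-1 and 12.2 in controls, so that its place in the order depended on the group. At the low end were Nr4a2 at 0.822 CPM per kilobase after anti-PD-1 and 0.304 in controls, Nr2f1 at 0.157 after anti-PD-1 and 0.152 in controls, and Vdr at 0.133 after anti-PD-1 and 0.0403 in controls. In this order 3 of 31 pairs of neighbours had ranges over all 6 libraries that did not overlap: Rxra above Nr3c1, Nr2c1 above Nr2c2, and Thra above Rxrg. The other neighbours did not differ beyond the spread of the libraries. Exon lengths came from the GRCm38 annotation and join the exons of all annotated transcripts of a gene. A gene that uses only part of these exons is therefore placed too low in the order. Of the 32 members, 12 share exon bases with another gene, 6 of them over 5% of their own.

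**Figure D5:**
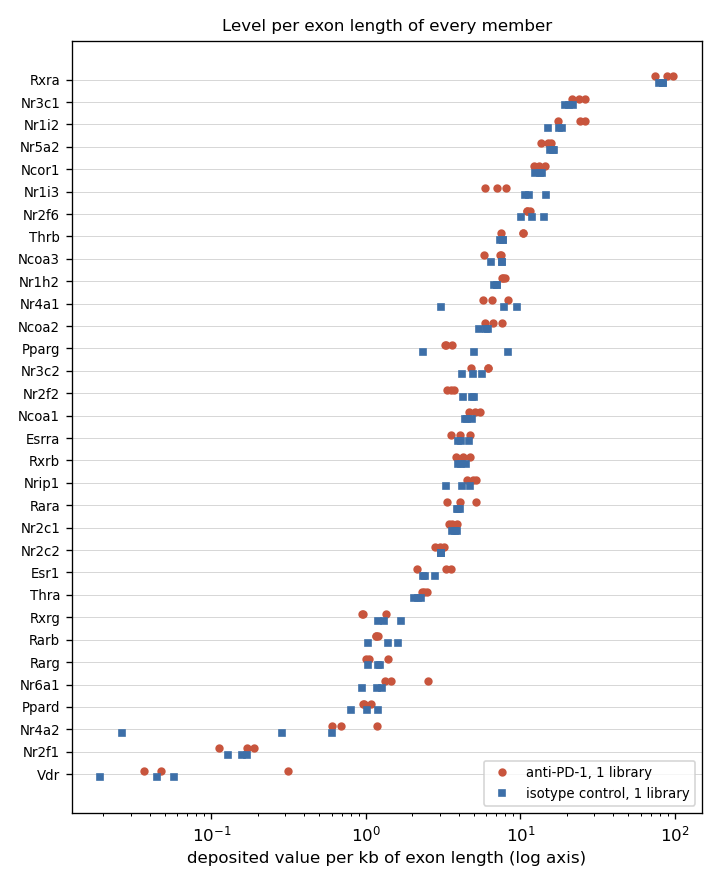
Level of every member per kilobase of exon (CPM per kilobase, log axis) in each library, anti-PD-1 as circles and isotype control as squares, ordered by the isotype control mean. Rxra stands alone at the top, and Nr4a2, Nr2f1 and Vdr form the low end. Nr1i3 is shifted left in the anti-PD-1 libraries.

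RefSeq promoter windows of 300 bases (GRCm38.p6) were found for 28 of the 32 members, 44 windows in all, since some genes have several start sites. The hexamer AGGTCA, the core element bound by many nuclear receptors, occurred on either strand in 9 member windows (20.5%) and in 16.3% of all 32851 windows. The E-box CACGTG occurred in 4 member windows (9.09%) and in 7.15% of all windows. Among the 4 are overlapping windows of Rara that hold the same match. By gene, 3 of 28 members had a match, against 8.09% of all genes. The cyclic AMP response element TGACGTCA occurred in 1 (2.27%), against 1.79% of all, and the D-box TTATGTAA in none, against 0.938% of all. None of these motifs was in the windows of Nr2f2 or Nr4a2. The AGGTCA windows belonged to 8 genes, among them Rxra with 2 matches, at 87 and 48 bases before its start. A match describes letters in a window and is not evidence of binding.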

How the data were processed

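Per the labels' protocols, total RNA of whole liver was depleted of ribosomal RNA and made into directional libraries. GRCm39, Bowtie2, RSEM 1.3.0, Trimmomatic 0.38 and edgeR are named in the submitters' processing notes, with no role stated. The authors deposited a table of signal values, normalized between libraries, for 21512 genes. In each library 100% of these values came out as whole reads, within 0.001 read, after division by the worth of 1 read, so counts were recovered, and recomputed trimmed-mean factors matched those implied by the authors' columns. They may be rounded estimates. Symbols were matched by gene identifier (21407 of 21512).

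Genes with a value of at least 1 in at least 3 libraries (13990) were tested with limma 3.58.1 in R 4.3.3, with an intensity trend on log2(value + 0.5), two-sided, with Benjamini-Hochberg adjustment over all tested genes and a threshold of 0.05. On this scale changes of low genes are understated. edgeR 4.0.16 and DESeq2 1.42.0 ran on the recovered reads. DESeq2 called 151 genes higher and 110 lower. limma, edgeR and DESeq2 were tested on simulated data. P-values measure the spread between 3 mice per group.

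Members, lists, markers and tests were chosen with earlier results of these data known. Named genes are all members, the 2 genes with the smallest unadjusted p of each list, and 25 fixed names, some of which are not reported here; others are said to be chosen after their values were seen. The labels number the replicates 1 to 3 in both groups without naming a shared litter or day. Same-numbered libraries deviated together (correlations of 0.15, 0.13 and 0.25 around their group means, against -0.22 to 0.06 for other pairs). By the rule used (all over 0.1) the numbers were taken to pair the mice, and a blocked fit was added to the unpaired one. The pairing was drawn from the same values that the blocked fit tests, so blocked p-values are no independent support for a call. Exon lengths, overlaps and promoter windows came from GRCm38, an older build than the submitters', and serve only for lengths, neighbours and sequence. Python 3.11.15 drew the figures. Other alternatives changed the pseudocount (0.1, 2), the filter (none, 5), the scaling and the trend, and left out each library. Leaving out both libraries numbered 1 was added after seeing the data. Genes of the lists without a row in the table were not analysed here.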

Additional observations from a re-analysis of the deposited data

How the results depend on the processing

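No member passed the threshold in any alternative except DESeq2, which called 1 member lower. Of the members, 19 of 30 kept their sign over 17 alternatives. Over all tested genes, limma called 1 higher and 0 lower. DESeq2 called 151 higher and 110 lower, limma with the replicate block 27 and 13, and limma without both libraries numbered 1 (added after seeing the data) 103 and 40. Leaving out 1 library at a time gave 0 to 23 higher and 0 to 6 lower, the most without anti-PD-1 replicate 1. The replicate block changed no call of a member. Ncor1 was at 0.0123 with median-of-ratios scaling, 0.00169 with edgeR, 0.0126 with DESeq2 and 0.0677 without both libraries numbered 1. Quantile normalization gave -0.00142 for Ppard, -0.0389 for Nr1h3, -0.00495 for Nr1d1 and -0.0403 for Med1. edgeR gave -0.0114 for Ppard and DESeq2 0.0165 for Rarg. Without both libraries numbered 1, Nr4a1 was at -0.23, Esrra at 0.0356 and Fkbp5 at -0.0476. Leaving out 1 library at a time gave these ranges of the log2 fold change: Ppard -0.14 to 0.13, Rara -0.11 to 0.20, Rarg -0.14 to 0.0664, Rxra -0.0113 to 0.18, Rxrb -0.0371 to 0.11, Nr2c2 -0.0652 to 0.031, Nr2f6 -0.22 to 0.0292, Nr4a1 -0.34 to 0.45, Esrra -0.15 to 0.0534, Ncoa3 -0.15 to 0.0424, Ncor1 -0.0637 to 0.057, Nr1h3 -0.10 to 0.10, Nr1d1 -0.0705 to 0.19, Med1 -0.0416 to 0.0526, Fkbp5 -0.031 to 0.41, Thrsp -0.32 to 0.22 and Cyp26b1 -0.0337 to 0.50. The causes were not tested. With 3 mice per group, differences of the size seen for most members could not be told from the spread between mice.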

Other observations

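Marker lists of other cell types gave the following sums, none of which was tested against the members. The fold changes of all 6 Kupffer cell markers were negative, and 5 had a limma p under 0.05 before adjustment, 0 after it. Timd4, which no anti-PD-1 library had at 1 CPM, passed the filter on low values only through the controls. Cd163 and Marco reached 1 CPM in only 1 anti-PD-1 library but in all 3 controls, and so also passed through the controls. The filter thus favoured the negative sign of these markers, in the counts above and in the calls that follow. DESeq2 called Cd163, Timd4 and Marco lower (adjusted p = 3.45e-06, 0.00298 and 0.00699), and limma with the replicate block called Cd163 (adjusted p = 0.0298); the 3 were named after their values were seen. The sum of the 6 markers was 148 to 197 CPM after anti-PD-1 and 153 to 358 CPM in isotype controls, which overlap. Cd5l was the largest part of this sum in every library, at 102 to 126 CPM after anti-PD-1 and 75.9 to 209 CPM in controls. The sum thus says little about the other markers of the list. Of 6 T and NK cell markers, 3 passed the filter on low values, and did so only through the anti-PD-1 libraries, so their direction was fixed by the filter and is not counted here. B and plasma cell markers summed to 128, 11.2 and 15.6 CPM in anti-PD-1 replicates 1 to 3 and to 25.5, 51.5 and 16.4 CPM in isotype control replicates 1 to 3. Cholangiocyte markers ranged from 78.2 to 136 CPM after anti-PD-1 and from 93.9 to 236 CPM in isotype controls. The 6 proliferation markers ranged from 17.1 to 52.8 CPM after anti-PD-1 and from 31.5 to 82.6 CPM in isotype controls. All had negative fold changes. Ccnb1 and Birc5 reached 1 CPM in only 1 anti-PD-1 library but in all 3 controls, so the filter favoured their sign. Anti-PD-1 replicate 1 and isotype control replicate 1 were the highest libraries of their groups on the proliferation list.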
